A study of Mus musculus with 6 samples.

Results

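Mitosis and chromosome segregation were followed in primary VSMCs (vascular smooth muscle cells, the contractile cells of the artery wall) of the mouse through a list of 48 genes. The list runs from the transcription factors that switch on mitotic genes, through the kinases of mitotic entry, to the spindle, kinetochore, cytokinesis and condensin genes. Members were found on the arrays by gene symbol. Of the 48 genes, 42 had at least 1 probe of that name, 65 probes in all, out of 16593 genes and 25697 probes on the array. Of the 42, 34 genes passed the filter on detection and were tested, and the levels and changes below are of these 34. The other 14 enter only the counts of probes and promoter motifs. Ccnb1, Aurkb, Cenpf, Racgap1, Mki67 and Smc4 had no probe of that name and were not analysed here. Probes for Ccnb2, Wee1, Bub1, Cenpe, Nuf2, Kif20a, Ect2 and Smc2 were not above background on 2 or more of the 6 arrays.

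The cells came from C57BL/6J mice 8 weeks old. They were infected with lentivirus carrying miR-128 (group mir128) or a scrambled miRNA (groups shScr1 and shScr2), kept in puromycin for 2 days, and their RNA was taken after 5 days. All 3 groups therefore carry a lentivirus and went through puromycin, and no uninfected cells were among the samples. Each group had 2 biological replicates, named A and B, each on 1 Illumina bead array. The promoter that drives the miRNA, the number of mice and the infection order were not stated in the labels. The comparisons ask how the transcriptome differs when miR-128 is overexpressed.

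Most genes in the set are silent for much of the cell cycle and are transcribed together in G2 and mitosis. B-Myb (Mybl2) with the MuvB complex and then FOXM1 switch them on, and the DREAM complex, which shares MuvB, represses them in resting cells. Both act through a short promoter element, the cell cycle genes homology region (CHR), which often lies close to CCAAT boxes bound by NF-Y. VSMCs in a healthy artery rarely divide, and division resumes in culture and after injury. In bulk RNA such as this, fewer dividing cells and less mitotic RNA per cell cannot be told apart.

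The mature sequence of mouse miR-128-3p, from RefSeq (GRCm38.p6), is printed because it is the 3′ arm of the miRNA after which the treatment is named. It is encoded at chr1:128202404-128202424 on the plus strand and at chr9:112118644-112118664 on the minus strand. Capitals mark the seed, bases 2 to 8. The labels do not name an arm, and the miRNA itself was not measured on these arrays.
miR-128-3p: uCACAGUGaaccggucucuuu

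The next 4 sequences are the 250 bases before the annotated start of Top2a, Cdk1, Cdc20 and Bub3, shown because these genes carry the results below and hold both promoter elements. The rule for printing took tested genes, from a short list of core mitotic genes, whose window held a CHR and at least 2 CCAAT boxes. Sequences are from RefSeq (GRCm38.p6), and each reads 5′ to 3′ on the strand of its gene. Capitals mark CHR (TTTGAA or TTCGAA) and CCAAT on either strand, so that CCAAT also appears as ATTGG and TTTGAA as TTCAAA. The Top2a window, at chr11:99024190-99024439 on the minus strand, holds 4 CHR and 6 CCAAT matches. The Cdk1 window, at chr10:69352913-69353162 on the minus strand, holds 2 CHR and 3 CCAAT matches. The Cdc20 window, at chr4:118437344-118437593 on the minus strand, holds 1 CHR and 2 CCAAT matches, and the Bub3 window, at chr7:131560120-131560369 on the plus strand, also holds 1 and 2.
Top2a: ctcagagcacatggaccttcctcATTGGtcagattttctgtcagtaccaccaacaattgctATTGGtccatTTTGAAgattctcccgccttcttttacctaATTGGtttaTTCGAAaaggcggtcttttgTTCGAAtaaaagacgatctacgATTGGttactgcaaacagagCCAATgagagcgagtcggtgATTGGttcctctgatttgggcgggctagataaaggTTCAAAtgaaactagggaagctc
Cdk1: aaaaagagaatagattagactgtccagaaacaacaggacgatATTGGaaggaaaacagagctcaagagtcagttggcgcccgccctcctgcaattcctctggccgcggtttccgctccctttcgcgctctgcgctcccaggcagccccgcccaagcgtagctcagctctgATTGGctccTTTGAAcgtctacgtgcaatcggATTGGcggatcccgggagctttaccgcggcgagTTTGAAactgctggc
Cdc20: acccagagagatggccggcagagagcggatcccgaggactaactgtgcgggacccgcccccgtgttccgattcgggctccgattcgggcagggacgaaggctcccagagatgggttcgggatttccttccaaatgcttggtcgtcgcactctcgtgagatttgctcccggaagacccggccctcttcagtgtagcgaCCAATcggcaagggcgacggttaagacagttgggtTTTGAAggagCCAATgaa
Bub3: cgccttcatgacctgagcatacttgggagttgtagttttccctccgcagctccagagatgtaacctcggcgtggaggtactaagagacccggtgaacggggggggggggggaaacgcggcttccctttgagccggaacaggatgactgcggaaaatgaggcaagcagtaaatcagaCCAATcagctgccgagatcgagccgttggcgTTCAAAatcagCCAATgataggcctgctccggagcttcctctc

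Promoter windows of 300 bases, from 250 before to 50 after the start, were in the RefSeq table for 39 of the 48 genes. A CHR match, on either strand, was in the windows of 31 of these 39 genes (79.5%), against 21.7% of all 27025 genes with a window. CCAAT was in 76.9% of them, against 41.1% of all genes, and 2 or more copies were in 51.3%, against 13.3%. Both a CHR and at least 2 CCAAT matches were in 19 genes (48.7%), against 2.68% of all genes. An E2F-like match (TTTCCCGC, TTTGGCGC, TTTGCCGC or TTTCGCGC) was in 5.13%, against 2.6%. Each motif was matched apart, and a base may belong to matches of both strands. In 29 of the 31 genes a CHR match lay within the last 100 bases before the start or after it. Birc5, Mad2l1, Mybl2, Ncaph, Nuf2 and Nusap1 had neither a CHR nor a CCAAT match in the window. These are matches of letters and were not tested as binding sites.

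**Figure D1:**
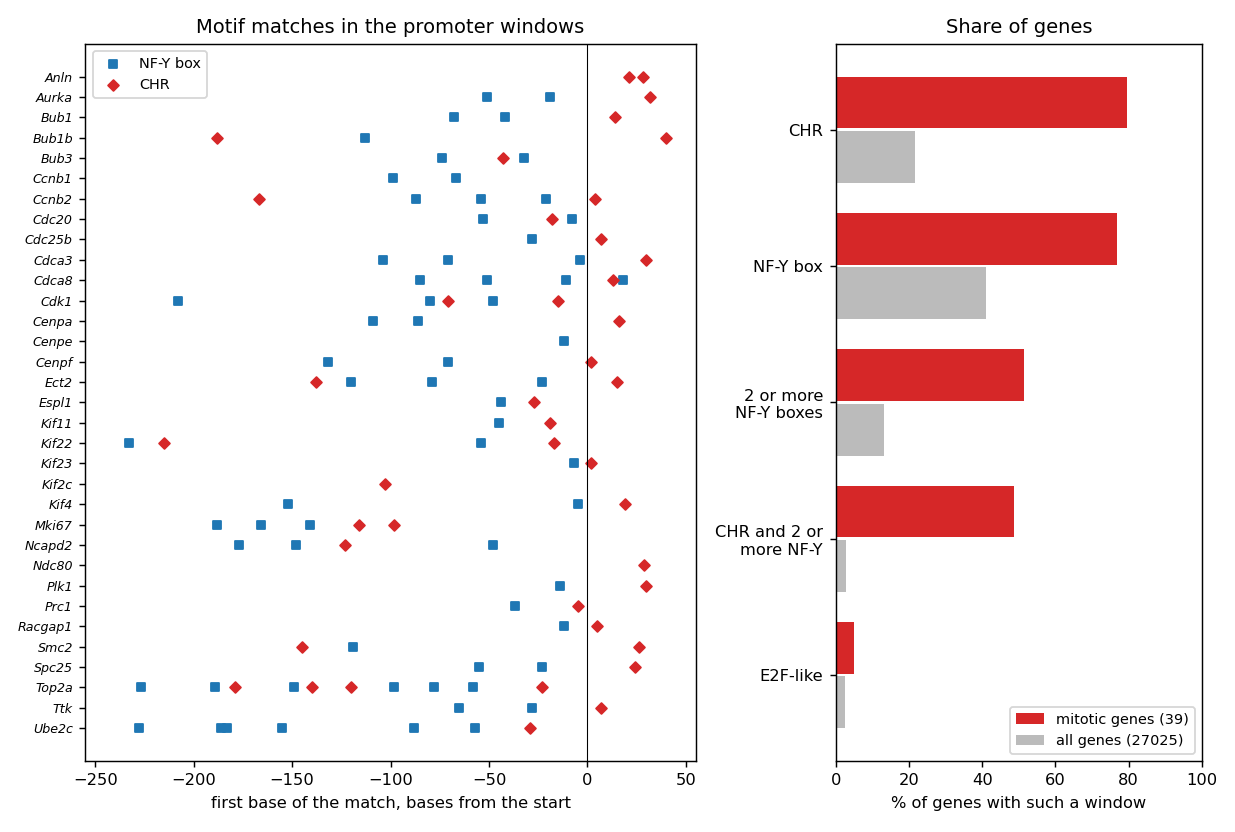
Left, position of each CHR match (red diamonds) and CCAAT match (blue squares, labelled NF-Y box) in bases from the annotated start, in 1 window for each gene of the set with a match. Right, percent of genes with each motif among the 39 genes of the set with a window (red) and all 27025 genes (grey): CHR matches sit near the start, and a CHR with at least 2 CCAAT boxes is in 48.7% of the set against 2.68% of all genes.

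Values are log2 intensities after background correction and quantile normalization, and a change is a difference of group means on that scale. Each gene is represented by its brightest probe above background. A gene was called when its adjusted p, from limma over all 9010 genes tested with Benjamini-Hochberg adjustment, was under 0.05. Array mir128 A stood apart before normalization: 13277 probes were detected there, against 11589 to 12343 on the other 5 arrays, and its upper quartile of intensity was 373, against 201 to 252. The 2 mir128 arrays also differed from each other more than scrambled replicates did, with an SD of the A minus B difference over all genes of 0.527, against 0.283 in shScr1 and 0.31 in shScr2. The smooth muscle identity on the labels was checked with 10 markers, of which 9 were detected on 2 or more arrays (Cnn1 was not). Acta2, Tagln, Smtn, Cald1 and Tpm2 were detected on all 6 arrays, Lmod1 and Des on 3, and Myh11 and Mylk on 2. Myh11 read 4.33 to 4.57 on the scrambled arrays and 5.76 and 6.27 with miR-128. Mylk read 4.29 to 4.57, and 5.79 and 5.4 with miR-128. Tagln, though detected on all 6 arrays, read only 4.90 to 5.57 on the scrambled arrays, and 9.79 and 10.13 with miR-128. Lmod1 read 4.53 to 4.98, and 8.42 and 8.03 with miR-128. On the scrambled arrays the check therefore rests mainly on Acta2, Smtn, Cald1 and Tpm2. Against both scrambled groups 7 of the 9 tested markers were called higher, where 15.6% of all genes were. The summed intensity of the 10 markers ran from 18659 to 35074 on the scrambled arrays and from 102204 to 104678 on the mir128 arrays. Of 7 endothelial markers on the array 2 were detected, of 5 leukocyte markers 3, of 6 fibroblast markers 4, and of 5 adipocyte and 1 Schwann cell markers none. Cdh5, Vwf, Tie1, Emcn, Ptprc and Itgam were among those not detected. The summed intensity of the leukocyte markers was 1199 to 1351 on the scrambled arrays and 1588 and 1232 on mir128 A and B, and that of the fibroblast markers 998 to 2612 and 3706 and 2089. Against the mean of both scrambled groups single markers moved both ways: Lyz2 (1.36), Cd3e (1.59) and Dcn (1.04) were called higher, and Cd14 (−1.10) and Pdgfra (−0.97) lower. Dcn differed between the controls, by −2.38 for shScr2 against shScr1. With miR-128 it changed by 2.23 against shScr2, and by −0.15 against shScr1, which was not called. Pdgfra was called against shScr1 (−1.2) and not against shScr2 (−0.73). The part of these markers in the results was not tested.

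Mitotic genes fell with miR-128, and none was called higher. Against the mean of both scrambled groups, 23 of the 34 tested genes were called lower and 0 higher, where 13.6% of all 9010 genes were called lower and 15.6% higher. The median change over the 34 genes was −1.20, against 0.00 over all genes. All 34 changes were below 0, from −2.11 for Birc5 (survivin, the chromosomal passenger subunit that guides Aurora B) to −0.29 for Ttk (the checkpoint kinase MPS1). A fall of at least 2-fold was measured for 21 genes, of which 16 were called. The share of all genes with such a fall was not counted. Both mir128 arrays lay below all 4 scrambled arrays for 28 of the 34 genes, which held for 22.8% of all genes tested. Ccna2 and Ttk passed the filter only through their level in shScr2; among the other 32 genes, above background on all 6 arrays, 22 were called and the median was −1.21.

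**Figure D2:**
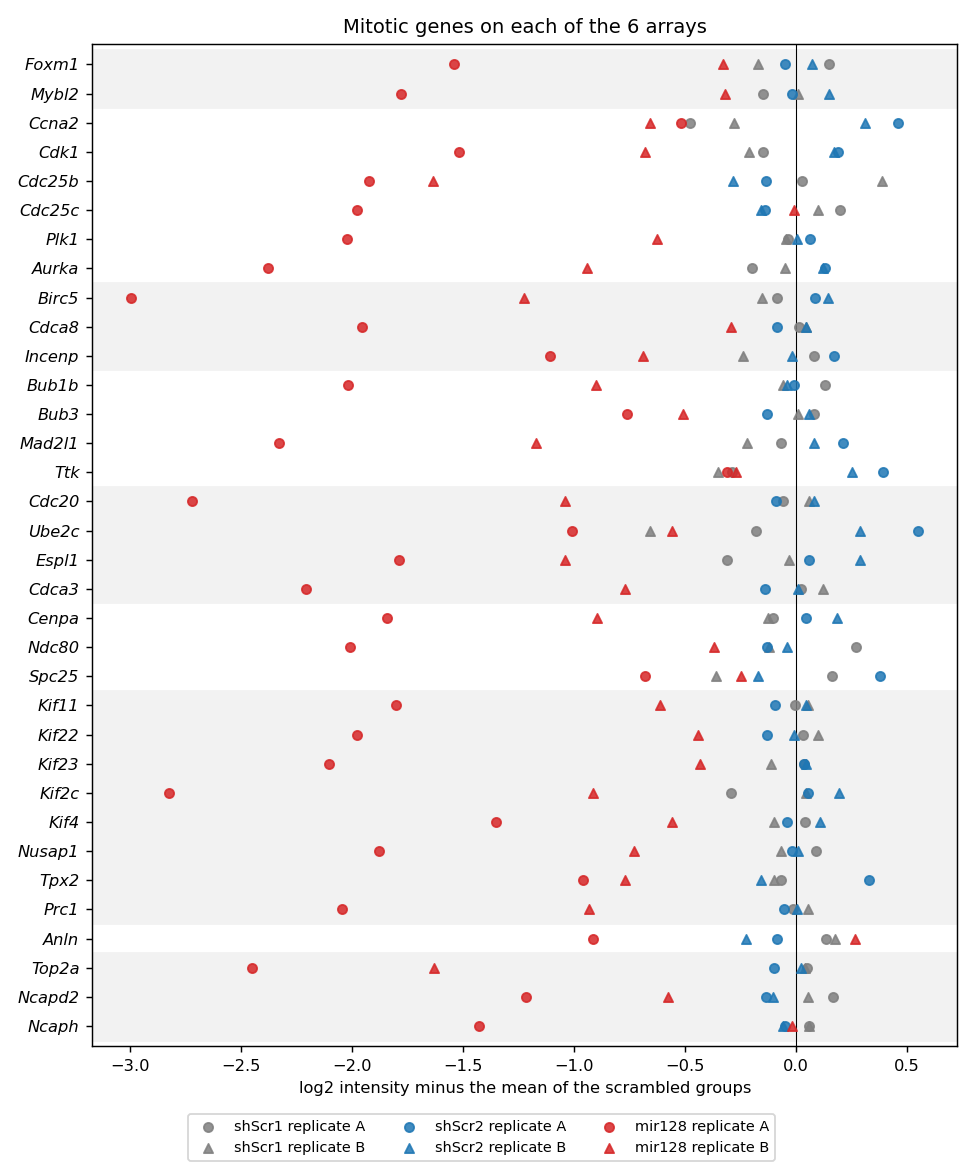
Each of the 34 tested mitotic genes on each of the 6 arrays, as log2 intensity minus the mean of the scrambled group means, with roles separated by shading. Red points (mir128) lie left of the grey and blue scrambled points for 28 genes, and mir128 A (circles) lies left of mir128 B (triangles) for every gene but Ccna2.

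How many genes were called depended on single arrays. The share of all genes called with an array left out was not counted. The 23 calls became 6 without shScr1 A, 7 without shScr1 B, 9 without shScr2 A and 10 without shScr2 B. They became 20 without mir128 A and 32 without mir128 B, with the lone array taken to vary like the other groups. Cdc25b, Mad2l1, Espl1, Cenpa and Top2a were called in each of these 6 fits. Of the 23 called genes, 9 lost the call in at least 1 of 10 alternatives that kept all arrays, namely Ccna2, Plk1, Bub3, Ube2c, Cdca3, Kif11, Kif2c, Kif4 and Tpx2. Without a detection filter the adjusted p was 0.0759 for Plk1, 0.0598 for Cdca3, 0.0636 for Kif11 and 0.0709 for Kif2c. With the probes of a gene averaged it was 0.0569 for Kif4, and with median scaling 0.0948 for Tpx2. The median change was −0.65 without mir128 A and −1.86 without mir128 B. It was −0.87 with no background correction and −0.55 in the authors' processed values, whose transform is not stated.

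The fall was larger in replicate A than in replicate B. The median over the 34 genes was −1.86 in mir128 A and −0.65 in mir128 B, against 0.01 and 0.00 over all genes. Replicate A lay below replicate B for 33 of 34 genes (97.1%), with Ccna2 the exception, where 50.1% of all genes did so. In shScr1 and shScr2 the median A minus B difference of the same genes was 0.02 and −0.03. Replicate A lay below all 4 scrambled arrays for 33 of 34 genes, and 34.7% of all genes did so. For replicate B that held for 28 genes, and for 32.6% of all genes. Mitotic probes made up 0.552% to 0.591% of the summed intensity of each scrambled array, 0.198% on mir128 A and 0.364% on mir128 B. The higher upper quartile of mir128 A moved with the larger fall, and its part in it was not tested.

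The ratio of the replicates was not the same for every gene. The change in mir128 B, as a percent of that in mir128 A, had a median of 40 over the 34 genes. It was above 50 for 10 genes, from 25 to 50 for 15 and under 25 for 9. Cdc25b stood at 85, Tpx2 (an activator of Aurora A on the spindle) at 80, Bub3 at 68, Top2a at 66 and Incenp at 62. At the other end, Cdc25c and Ncaph stood at 1, Cdca8 at 15, Mybl2 and Ndc80 at 18, Kif23 at 20, Foxm1 at 21 and Kif22 at 22. For Anln it was −30, since replicate B was above the scrambled mean. None of those 9 genes was called, and the gap between A and B that placed them here also enters their SE.

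**Figure D3:**
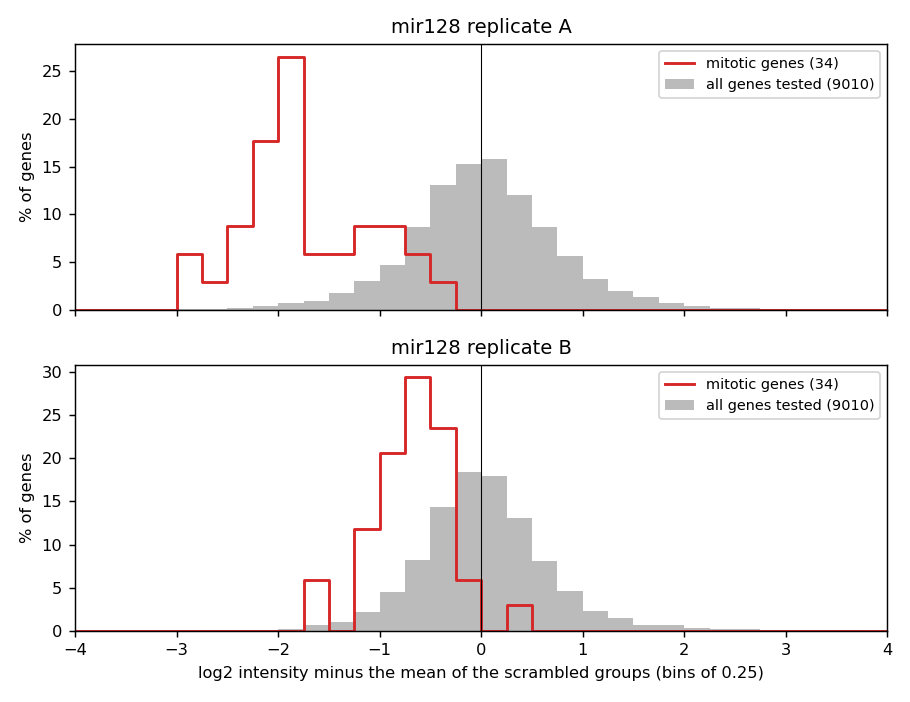
Percent of genes in bins of 0.25 of the log2 difference from the mean of the scrambled groups, for mir128 A (top) and mir128 B (bottom), for the 34 mitotic genes (red line) and all 9010 genes tested (grey). The red line is centred on −1.86 in replicate A and on −0.65 in replicate B, and the grey bars are centred on 0.01 and 0.00.

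Neither transcription factor was called. Foxm1, the forkhead factor of G2 and M genes, read 8.76 and 8.44 in shScr1, 8.56 and 8.68 in shScr2, and 7.07 and 8.28 in mir128 A and B. Both mir128 arrays were the lowest, replicate B by a small margin. The change was −0.93 ± 0.33 (SE, limma adjusted p = 0.0762), and a dimmer Foxm1 probe, tested among all probes, gave −1.09 (adjusted p = 0.0192). Mybl2, which encodes B-Myb, read 9.08 and 9.24, then 9.21 and 9.38, and 7.45 and 8.91 with miR-128. Its mir128 arrays were again the lowest, with a change of −1.05 ± 0.38 (limma adjusted p = 0.0825). The 3 Mybl2 probes ranged from −1.05 to −0.16, and 1 of them was called.

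Among the genes of mitotic entry, 5 of 6 tested genes were called lower, Ccna2 included, with a median of −1.21. Cdk1, the kinase that drives entry with cyclin B, read 11.45 and 11.39 in shScr1, 11.79 and 11.77 in shScr2, and 10.08 and 10.92 with miR-128. Both mir128 arrays were below every scrambled array, and the change was −1.10 ± 0.24, or 2.14-fold (limma adjusted p = 0.0176). The dimmer of the 2 Cdk1 probes gave −0.63 and was not called. Plk1, the polo-like kinase that promotes entry and spindle assembly, read 11.25, 11.24, 11.35 and 11.29 on the scrambled arrays and 9.26 and 10.66 with miR-128. The scrambled arrays lay close together and both mir128 arrays below them, 1 far below, for a change of −1.33 ± 0.36 (limma adjusted p = 0.0353).

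Cdc25b and Cdc25c encode phosphatases that remove the inhibitory phosphate from CDK1. Cdc25b read 7.47 and 7.83, then 7.31 and 7.16, and 5.52 and 5.81 with miR-128. Here the 2 mir128 arrays agreed closely, and the change of −1.78 ± 0.17, or 3.44-fold, had the smallest adjusted p of the set (limma adjusted p = 0.00172). Its size fell to −0.89 with no background correction. Cdc25c read 8.33, 8.23, 7.99 and 7.97 on the scrambled arrays and 6.15 and 8.12 with miR-128. Only replicate A was low, replicate B lay among the scrambled arrays, and the change of −0.99 ± 0.49 was not called (limma adjusted p = 0.176). Aurka, the Aurora kinase of the spindle poles, changed by −1.66 ± 0.37 (limma adjusted p = 0.0194).

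Ccna2, the cyclin A of S phase and G2, was dim. It read 4.62 and 4.82 in shScr1, 5.56 and 5.41 in shScr2, and 4.58 and 4.44 with miR-128. It was above background on the 2 shScr2 arrays only, so that its level has a floor in the other groups. Against shScr2 it was at least 1.64-fold lower, with 5.48 and 4.51 as measured means. The bound sets the shScr2 mean against the lowest signal among detected probes, and no fold can be given against shScr1. Since Ccna2 entered the tests only through its level in shScr2, these values are a description, although the gene is among the calls counted. With no background correction its call was lost against both groups (adjusted p = 0.129) and against shScr2 (adjusted p = 0.0606).

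In the chromosomal passenger complex, which corrects faulty attachments of chromosomes, 2 of 3 tested genes were called lower. Birc5 read 11.87, 11.80, 12.04 and 12.10 on the scrambled arrays, and 8.96 and 10.73 with miR-128. Both mir128 arrays were well below the rest, with a change of −2.11 ± 0.44, or 4.31-fold (limma adjusted p = 0.016), and all 3 of its probes were called lower. Incenp, the scaffold of the complex, read 9.33 and 9.01, then 9.42 and 9.23, and 8.14 and 8.56 with miR-128. The groups did not overlap, and the change was −0.90 ± 0.18 (limma adjusted p = 0.0149). Cdca8, which encodes borealin, read 9.33 to 9.46 on the scrambled arrays and 7.46 and 9.12 with miR-128. Replicate B was only just below the others, and the change of −1.13 ± 0.42 was not called (limma adjusted p = 0.0887).

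In the spindle checkpoint, which delays anaphase until all kinetochores are attached, 3 of 4 tested genes were called lower. Mad2l1, which encodes the MAD2 inhibitor of CDC20, read 10.57 and 10.42, then 10.85 and 10.72, and 8.31 and 9.47 with miR-128. Both mir128 arrays lay well below the lowest scrambled array, and the change was −1.75 ± 0.31, or 3.36-fold (limma adjusted p = 0.00947). Bub3, the kinetochore partner of BUB1 and BUBR1, read 7.73, 7.66, 7.52 and 7.71, and 6.89 and 7.14 with miR-128. Its replicates agreed, with a small change of −0.64 ± 0.15 (limma adjusted p = 0.0217). With median scaling the change was −0.31 and the call was lost (adjusted p = 0.232), and with no background correction it was −0.40 and called. Bub1b, which encodes BUBR1, changed by −1.46 ± 0.30 (limma adjusted p = 0.0152).

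Ttk read 4.45 and 4.39 in shScr1, 5.13 and 4.99 in shScr2, and 4.43 and 4.47 with miR-128. Like Ccna2 it was above background in shScr2 only, and the mir128 arrays were level with shScr1. It was at least 1.22-fold lower than in shScr2, with 5.06 and 4.45 as measured means, and this too is a description of a gene that entered through shScr2. Its call against shScr2 was lost with no background correction (adjusted p = 0.165) and with median scaling (adjusted p = 0.067).

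All 4 tested genes of the anaphase-promoting complex and separase group were called lower, with a median of −1.45. This group holds no core subunit of the complex. A list of its subunits, read below, had 4 of 12 called lower at a median of −0.17, beside 13.6% of all genes. Cdc20, the activator of the complex and the target of the checkpoint, read 11.77, 11.89, 11.74 and 11.91 on the scrambled arrays and 9.11 and 10.79 with miR-128. Both mir128 arrays were below the narrow scrambled range, with a change of −1.88 ± 0.43, or 3.68-fold (limma adjusted p = 0.0202). All 4 Cdc20 probes were called lower, from −2.28 to −1.65. Espl1, which encodes separase, the protease that cuts cohesin, read 7.35 and 7.63, then 7.72 and 7.95, and 5.87 and 6.62 with miR-128. The groups did not overlap, and the change was −1.41 ± 0.24 (limma adjusted p = 0.00796), or −0.79 with no background correction. Ube2c, the ubiquitin-conjugating enzyme of the complex, read 5.82 and 5.34, then 6.55 and 6.29, and 4.99 and 5.44 with miR-128. Replicate B was above shScr1 B, so the groups overlapped, and the change was −0.78 ± 0.21 (limma adjusted p = 0.0351). The call was lost with no background correction (−0.28, adjusted p = 0.064), with median scaling (−0.55, adjusted p = 0.124), in the authors' values (adjusted p = 0.107) and with the replicate letter as a block (adjusted p = 0.0513). Cdca3, known in Xenopus to promote the breakdown of WEE1, changed by −1.49 ± 0.37 (limma adjusted p = 0.0271).

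Among the kinetochore genes 1 of 3 was called lower, and all 3 changes were negative. Cenpa, the histone H3 variant that marks centromeres, read 12.61 and 12.59, then 12.76 and 12.90, and 10.87 and 11.82 with miR-128. Both mir128 arrays were lower by more than the scrambled arrays differed, with a change of −1.37 ± 0.26, or 2.59-fold (limma adjusted p = 0.0124). Ndc80, which binds the microtubule end, changed by −1.19 ± 0.43 (limma adjusted p = 0.0819) and was not called. Spc25, a subunit of the same NDC80 complex, read 9.06 and 8.54, then 9.28 and 8.73, and 8.22 and 8.65 with miR-128. The scrambled replicates themselves were spread, the groups overlapped, and the change of −0.46 ± 0.24 was not called (limma adjusted p = 0.2).

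Kinesins and spindle genes gave 6 calls among 8 tested genes, at a median of −1.24. Prc1, which bundles the midzone microtubules of anaphase, read 12.27 and 12.34, then 12.23 and 12.29, and 10.24 and 11.35 with miR-128. All scrambled arrays lay close together above both mir128 arrays, and the change was −1.49 ± 0.29, or 2.81-fold (limma adjusted p = 0.0134). Kif23, the MKLP1 motor of the midzone, read 9.28, 9.13, 9.28 and 9.29, and 7.14 and 8.81 with miR-128. Replicate A was far below and replicate B slightly below, and the change of −1.27 ± 0.42 was not called (limma adjusted p = 0.0661).

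Kif4, a chromokinesin, read 9.53 and 9.39, then 9.45 and 9.60, and 8.14 and 8.93 with miR-128. The groups did not overlap, and the change was −0.96 ± 0.23 (limma adjusted p = 0.0255). Only 1 of its 3 probes was called, although all 3 lay between −0.96 and −0.91. Kif2c, the microtubule-depolymerising kinesin MCAK, changed by −1.87 ± 0.48, Kif11, the EG5 motor that separates the poles, by −1.21 ± 0.31, and Nusap1, a microtubule-bundling protein, by −1.31 ± 0.31. All 3 were called. Tpx2 changed by −0.86 ± 0.18 and was called, and Kif22, the chromokinesin KID, by −1.21 ± 0.39 and was not.

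Anln, the actin-binding anillin of the cleavage furrow, was the 1 cytokinesis gene tested. It read 12.30 and 12.34 in shScr1, 12.08 and 11.94 in shScr2, and 11.25 and 12.43 in mir128 A and B. Replicate A was the lowest of the 6 arrays and replicate B the highest, and the change was −0.32 ± 0.31 (limma adjusted p = 0.48). A dimmer Anln probe gave −1.21 and was called among all probes (adjusted p = 0.0463), so the 2 probes disagreed.

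Top2a, the topoisomerase that untangles sister chromatids, had the second largest fall of the set. It read 10.05 and 10.04 in shScr1, 9.90 and 10.02 in shScr2, and 7.55 and 8.37 with miR-128. Both mir128 arrays were far below scrambled arrays that nearly coincided, and the change was −2.04 ± 0.24, or 4.12-fold (limma adjusted p = 0.00266). Ncapd2, a condensin subunit, read 9.54 and 9.43, then 9.24 and 9.27, and 8.16 and 8.80 with miR-128. The groups did not overlap, the change was −0.90 ± 0.20 (limma adjusted p = 0.0197), and 2 of its 3 probes were called. Ncaph, another condensin subunit, read 10.13, 10.13, 10.02 and 10.01, and 8.64 and 10.05 with miR-128. Replicate B lay among the scrambled arrays, and the change of −0.73 ± 0.36 was not called (limma adjusted p = 0.178).

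The 2 scrambled groups gave similar totals when used alone. These comparisons share the mir128 arrays. Against shScr1, 16 of 34 genes were called lower and 0 higher, with a median of −1.23, where 10.7% of all genes were called lower and 12.3% higher. Against shScr2, 19 were called lower and 0 higher, with a median of −1.19, where 10.1% of all genes were called lower and 12.0% higher. The 19 include Ccna2 and Ttk, and among the 32 genes above background on all 6 arrays 17 were called against shScr2, with a median of −1.24, and 16 against shScr1. Called against each were 13 genes, namely Cdc25b, Aurka, Birc5, Incenp, Bub1b, Mad2l1, Cdc20, Espl1, Cenpa, Nusap1, Tpx2, Prc1 and Top2a. Bub3, Cdca3 and Ncapd2 were called against shScr1 only, and Ccna2, Cdk1, Ttk, Ube2c, Kif2c and Kif4 against shScr2 only. The other 12 were called against neither, among them Plk1 and Kif11, which were called against the mean of both.

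Most genes called against 1 group lay close to the threshold against the other. Cdk1 changed by −0.92 ± 0.27 against shScr1 (limma adjusted p = 0.0561) and by −1.28 ± 0.27 against shScr2 (adjusted p = 0.0225). Kif4 changed by −0.93 ± 0.27 (limma adjusted p = 0.052) and −0.99 ± 0.27 (adjusted p = 0.0448). Ncapd2 changed by −1.01 ± 0.23 (limma adjusted p = 0.0261) and −0.78 ± 0.23 (adjusted p = 0.0559). These changes differed little between the controls. For Ccna2, Ttk and Ube2c, shScr2 read above shScr1 by 0.76, 0.63 and 0.84. These differences were not called (limma adjusted p = 0.16, 0.186 and 0.263). Ccna2 and Ttk were at background in shScr1 and passed the filter only through shScr2, so the filter itself favoured a higher shScr2.

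Single arrays moved these counts further, and the share of all genes called in such fits was not counted. The 16 calls against shScr1 became 1 without either shScr1 array, 5 without either shScr2 array and 30 without mir128 B. The 19 calls against shScr2 became 6 without either shScr1 array, 2 without shScr2 A, 1 without shScr2 B and 33 without mir128 B. When only the 2 groups compared entered the fit, 5 and 6 genes were called.

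**Figure D4:**
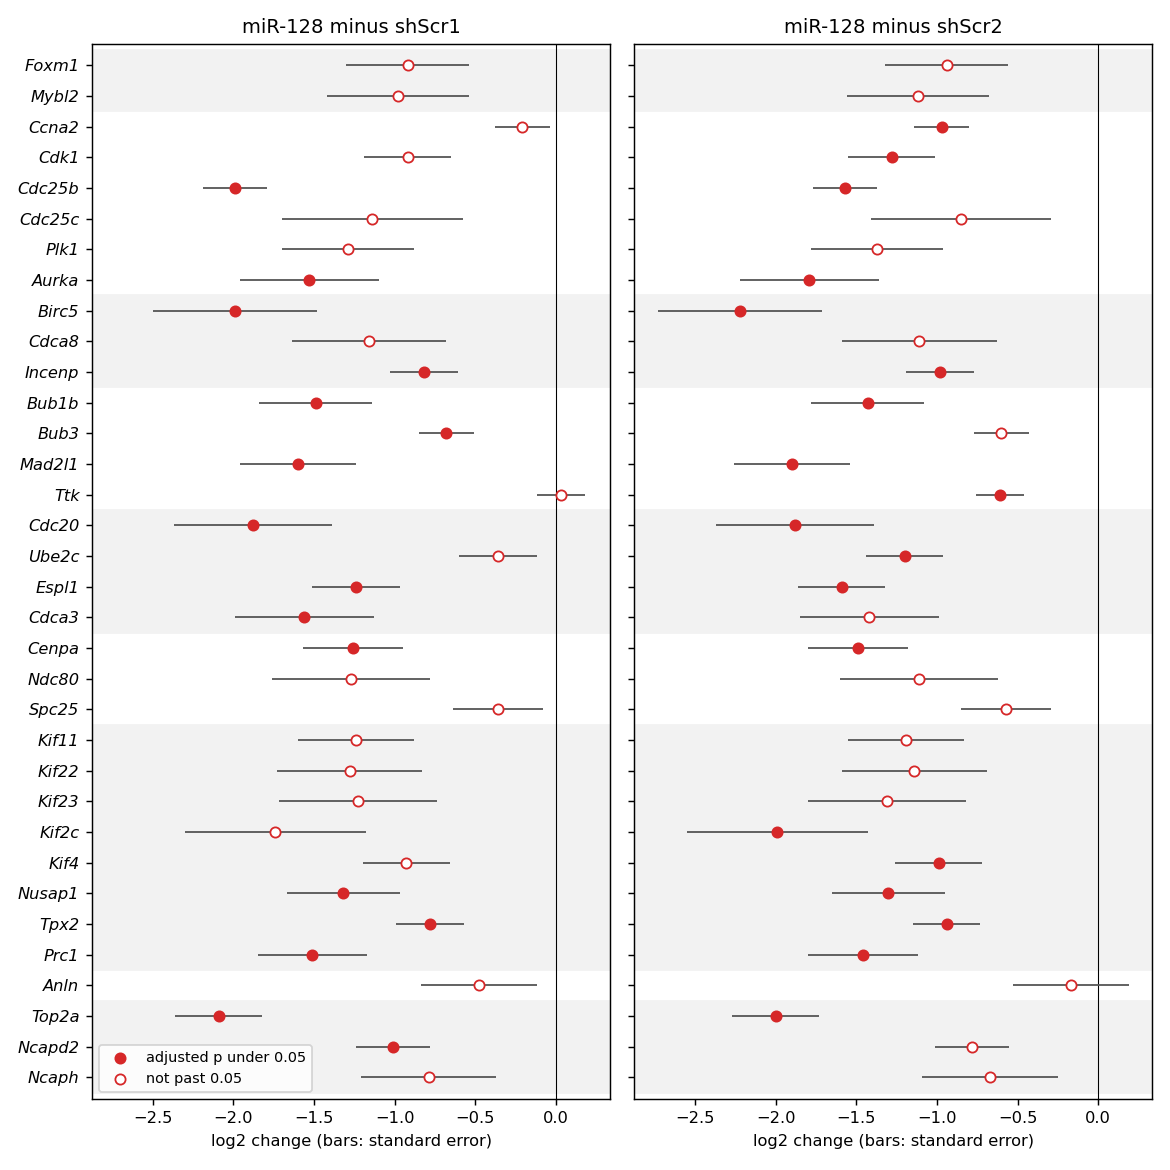
Log2 change of the 34 mitotic genes against shScr1 (left) and shScr2 (right), with bars of 1 standard error from limma and filled points for an adjusted p under 0.05. Points lie left of 0 in both panels, except Ttk at 0.03 against shScr1, and 16 and 19 of them are filled.

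Between the scrambled vectors, shScr2 against shScr1, 0 of the 34 genes were called by limma, where 0.0888% of all 9010 genes were. At an unadjusted p under 0.05, 3 were higher (Ccna2, Ttk and Ube2c) and 0 lower, and 0 were called by any other setting run. The share of all genes under that unadjusted p was not counted. Ccna2 and Ttk entered only through shScr2, so the filter favoured a higher shScr2 for them. The median difference was 0.04.

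Where a gene had several probes, their directions did not differ. Of the 65 probes, 52 were above background on 2 or more arrays, and all 52 changes against both scrambled groups were negative. Fitted among 12452 probes, 34 of the 52 were called lower and 0 higher. The share of all probes called in this fit was not counted. Among the 9010 genes tested, 13.6% were called lower and 15.6% higher, and 4475 of the changes were negative. Cdca3 and Nusap1 had both of their probes called.

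Mitotic genes outside the set were read from 6 further lists, 122 genes of which 84 were tested. Against both scrambled groups 43 were called lower and 1 higher, with a median of −0.83, beside 13.6% lower and 15.6% higher among all genes. Spindle and mitotic kinase genes had 18 of 24 called lower at a median of −1.29, from Melk (a mitotic kinase) at −1.96 to Gtse1 (a microtubule-binding G2 protein) at 0.11. Kinetochore genes had 12 of 26 called lower at a median of −0.90, from Cenpp (a constitutive centromere protein) at −1.63 to Mad1l1 (which anchors MAD2) at 0.06. All 3 tested condensin subunits were called lower, from Ncapg2 at −1.09 to Ncaph2 at −0.95. The Gtse1 and Mad1l1 values were not called.

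The remaining lists had smaller medians. Subunits of the anaphase-promoting complex had 4 of 12 called lower at a median of −0.17, from Anapc15 at −1.0 to Anapc11 at 0.20. Cohesin and its regulators had 3 of 12 called lower at a median of −0.33. They ran from Cdca5 (sororin, which protects cohesion) at −1.41 to Pttg1 (securin, the inhibitor of separase) at 0.18. Pttg1 was dim, at 4.53 to 5.33, was detected on 4 arrays and was not called. DREAM and MuvB genes had 3 of 7 called lower and 1 called higher at a median of −0.39. In that list E2f4, the repressor E2F of DREAM, read 7.91 and 8.07, then 7.80 and 8.17, and 7.31 and 6.67 with miR-128. Here replicate B was the lower one, unlike in 33 of the 34 mitotic genes, and the change was −1.0 ± 0.22 (limma adjusted p = 0.0191). E2f5, the other E2F of the complex, rose by 0.52 ± 0.15 (limma adjusted p = 0.0456). The differences between lists were not tested.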

How the data were processed

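RNA of 6 samples, 2 in each of 3 groups named by the labels, was measured on Illumina bead arrays. Per the file headers, the deposited non-normalized table holds a probe intensity and a detection p-value for each array. A further table holds the authors' processed values on a log2-like scale, with transform and centring not given in the sources used here. Per the submitters' processing notes, GenomeStudio 2011.1, lumi and limma were used. Probes were named through the platform annotation: 23978 have 1 gene symbol, 0 several and 1719 none.

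Intensities were background-corrected and quantile-normalized with neqc (offset 16) in limma 3.58.1 under R 4.3.3. neqc inferred the negative controls from the detection p-values. Probes stayed in (12452) where 2 or more of the 6 arrays had a detection p under 0.05, and the brightest per gene was tested (9010 genes). lmFit took 3 group means and 1 spread per gene for all groups. With eBayes this gave 3 residual and 3.52 prior degrees of freedom. The 2 arrays per group limit precision. Nothing beyond the label of biological replicate says how replicates were made, so p-values measure the spread between these arrays. Promoters were scanned in Python. Alternatives covered background, scaling, filter, probe rule, model and each array left out. On simulated data of 9010 genes, tests against both scrambled groups recovered 2% of planted changes of −0.5, 50% of −1, and 86% of −1.5 and of −2. Tests against shScr1 alone recovered 22% of −1 and 58% of −1.5, and against shScr2 alone 14% and 46%. The simulation planted 50 changes of each size and drew each gene's spread from the limma prior (SD 0.2), alike in all groups. In the data many more genes changed, and the members' median absolute difference between mir128 A and B was 1.15. The recovered shares therefore do not apply to the 34 genes as such.

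The members and lists were chosen with earlier results of these data known. All 48 genes were accounted for by role. Values in full were given for a core list, for the smallest and largest adjusted p in each role, and for genes called against 1 control with disagreeing probes or a bound.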

Additional observations from a re-analysis of the deposited data

How the results depend on the processing

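Against both scrambled groups, the changes of the 34 genes were negative in 539 of 540 alternative values. Of 1620 values over the 3 comparisons 7 reversed, none of a called result. These values are refits of the same 6 arrays, and the share of all genes that kept their sign was not counted. Without a detection filter, 7 genes were called against shScr1 and 12 against shScr2. With only the 2 groups compared in the fit, 5 and 6 were called. This fit has fewer samples, and its spread comes from the mir128 arrays and 1 scrambled group. The main fit takes the same spread in all groups. The members' median absolute A minus B difference was 1.15 in mir128, 0.12 in shScr1 and 0.14 in shScr2. Each SE and adjusted p of a member in the main fit therefore pools groups of unlike spread. Leaving out 1 array at a time gave 6 to 32 calls against both, 1 to 30 against shScr1 and 1 to 33 against shScr2. The medians then ran from −1.86 to −0.65 against both, to −0.60 against shScr1 and to −0.71 against shScr2. Median scaling moved the median of all genes to 0.19 and the share of lower calls from 46.5% to 26.8% (both), from 46.5% to 32.9% (shScr1) and from 45.7% to 21.3% (shScr2). The members' median was then −0.94, or −1.13 relative to all genes, and 20, 14 and 16 were called. With replicate letters as a replicate block, 23, 16 and 20 were called; the block lost Ube2c and gained Kif22 against both, lost Incenp and Tpx2 and gained Kif11 and Kif2c against shScr1, and lost Nusap1 and gained Cdca3 and Kif11 against shScr2. Deviations of same-letter arrays correlated at 0.119 to 0.15, and the labels do not say what a letter marks. Ttk against shScr1 reversed to −0.10 with median scaling, and ranged from 0 to 0.06 over arrays left out. Ranges over arrays left out were −0.91 to 0.27 for Anln against both, −1.07 to 0.11 against shScr1 and −0.76 to 0.42 against shScr2, −1.83 to 0.14 for Cdc25c and −1.38 to 0.03 for Ncaph against shScr2. The cause was not tested. Across the 10 alternatives other than leaving out arrays, 14 genes were called in each. Averaging a gene's probes gave −0.77 for Anln and −0.62 for Mybl2. A slide block was not run, since the tables used here give no slide. Dim probes such as Ccna2 and Ttk are limited by signal over background.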
